A study of Mus musculus with 54 samples.

Results

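The data described here are the measurements of 10 transporter genes of the kidney proximal tubule, out of 33126 gene symbols listed for mouse kidney profiled as cells, nuclei and bulk RNA. The 10 genes were taken as listed by name, by a rule that uses no measured value: Slc34a1, Slc34a3, Slc5a1, Slc5a2, Slc5a12, Slc6a19, Slc13a1, Slc13a3, Slc3a1 and Slc7a9. The proximal tubule is the first stretch of the nephron, and its brush border takes filtered phosphate, glucose, amino acids, organic acids and sulfate back from the tubule fluid. Most of these carriers move their substrate together with sodium, down the gradient that the sodium pump on the opposite, basolateral side keeps up. The early segments, S1 and S2, carry carriers of high capacity, and the last segment, S3, carries carriers that recover what is left.

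Slc34a1 (NaPi-IIa) and Slc34a3 (NaPi-IIc) are sodium-phosphate cotransporters of the brush border. Slc5a2 (SGLT2) and Slc5a1 (SGLT1) are the sodium-glucose cotransporters of high capacity and of high affinity. Slc5a12 (SMCT2) carries lactate and other monocarboxylates, Slc6a19 neutral amino acids, and Slc13a1 (NaS1) sulfate, each with sodium. Slc13a3 (NaDC3) is a sodium-dicarboxylate carrier that is usually placed on the basolateral side, so it is a member of the list and not of the apical membrane. Slc3a1 (rBAT) and Slc7a9, its light chain, form an exchanger for cystine and basic amino acids that is not itself driven by sodium.

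The study was made of 3 experiments, with 3 libraries in each of 18 groups. In the first, AFAPIL.1DEL C57BL/6J male mice of 19 weeks from a single litter gave kidneys dissociated on ice with a cold-active protease or warm with a commercial enzyme mix. These suspensions were profiled fresh, after fixation in methanol and storage for 3 months, or after cryopreservation for 6 weeks. This was done with 10x Genomics chemistry version 2, and the fresh suspensions were also profiled by bulk RNA-seq. In the second, untreated Balb/c males of 18 weeks gave cold-dissociated fresh cells, nuclei of flash-frozen kidneys prepared by SN_FANS_3x500g (3 washes, spun at 500 g, and a sort on DNA stain), and bulk RNA of intact kidneys, again with version 2. In the third, wild type Balb/c females of 15 weeks that had served as breeders gave cold-dissociated cells, fresh or cryopreserved for 2 weeks, and nuclei by SN_FANS_3x500g, SN_FANS_1x2000g (1 wash, spun at 2000 g, sorted) or SN_sucrose (a sucrose cushion, no sort), with version 3. Bulk RNA of intact kidneys and of cold suspensions completed this experiment. The intact kidneys used for bulk RNA were flash-frozen in males and in females. The first and the second experiment differ in strain and age, and the second and the third in sex, age and chemistry. The first and the third differ in all of these. The experiments were also separated in time, and the females alone had been breeders. Bulk RNA was selected for poly(A) in females and depleted of ribosomal RNA in the others. Within each pair these differences cannot be told apart, so that levels were tested within an experiment only.

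The 39 10x libraries held 811794 to 35170947 UMIs (unique molecular identifiers, 1 for each captured transcript) outside mitochondrial genes, in 782 to 9308 barcodes. The 15 bulk libraries held 2326998 to 31093949 counted reads. Genes found in under 10 cells were removed before deposit, as the study's methods state, and a 10x library listed 0 to 6658 genes at 0 and 0 to 852 in 1 to 9 barcodes. A 0 there can thus stand for a gene removed as too rare and is not a measured absence. Clusters of barcodes were named from marker genes, with the 10 transporters left out of the clustering, and "proximal tubule-like" stands for barcodes so named. The cryopreserved C57BL/6J libraries stood apart from all the others. They held 3 to 8 proximal tubule-like barcodes each, and 3 to 7 of the 17 proximal tubule markers that all 39 libraries list were at 0 in them, out of 18 on the list (Dpep1 is not listed for female nuclei).

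Slc34a1 was the most abundant of the 10 transporters per kilobase of exon in all 5 bulk groups, and Slc5a1 and Slc34a3 were among the least abundant. Levels between genes are compared here as CPM per kb, the counts per 1000000 reads divided by the length of the union of a gene's exons. Slc34a1 stood at 1087, 1071 and 1100.3 CPM per kb in the 3 cold suspensions of C57BL/6J kidney and at 703, 690.2 and 635 in the intact female kidneys. The male intact kidneys held 739, 667 and 692 CPM per kb of it. The lowest of these libraries lay above the highest library of any other transporter.

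The glucose carrier of the early tubule, Slc5a2, was next in the cold suspensions, with 297, 295 and 302 CPM per kb in C57BL/6J and 424, 414 and 449.9 in Balb/c females. In the intact kidneys and the warm suspensions the second place was held by Slc3a1, the heavy subunit of the cystine carrier, at 409, 361 and 354 CPM per kb in the intact female kidneys. The other glucose carrier, Slc5a1, stood at 19.5, 17.4 and 27.4 in the C57BL/6J cold suspensions and 11.6, 13.0 and 12.8 in the intact male kidneys. Slc5a2 was over 10 times as abundant per kb as Slc5a1 in each library of the C57BL/6J cold suspensions, the intact males and the female cold suspensions. The gap was narrower in the warm suspensions, with Slc5a2 at 214, 163 and 224 and Slc5a1 at 23.8, 37.2 and 24.3 CPM per kb, and in the intact females, with Slc5a2 at 238, 252 and 216 and Slc5a1 at 30.2, 31.3 and 30.6. Not every neighbor in the order could be separated. Slc5a2 and Slc3a1 overlapped in the C57BL/6J cold suspensions, Slc13a1 and Slc7a9 in both C57BL/6J groups, Slc5a12 and Slc13a3 in the intact kidneys, and Slc6a19 and Slc13a3 in the female cold suspensions. Exons of Slc34a1, Slc5a2 and Slc3a1 overlap those of Pfn3, BC017158 and Prepl on the opposite strand, and since the strand setting of the counting is not given in the sources used here, reads of these pairs may be mixed.

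**Figure D1:**
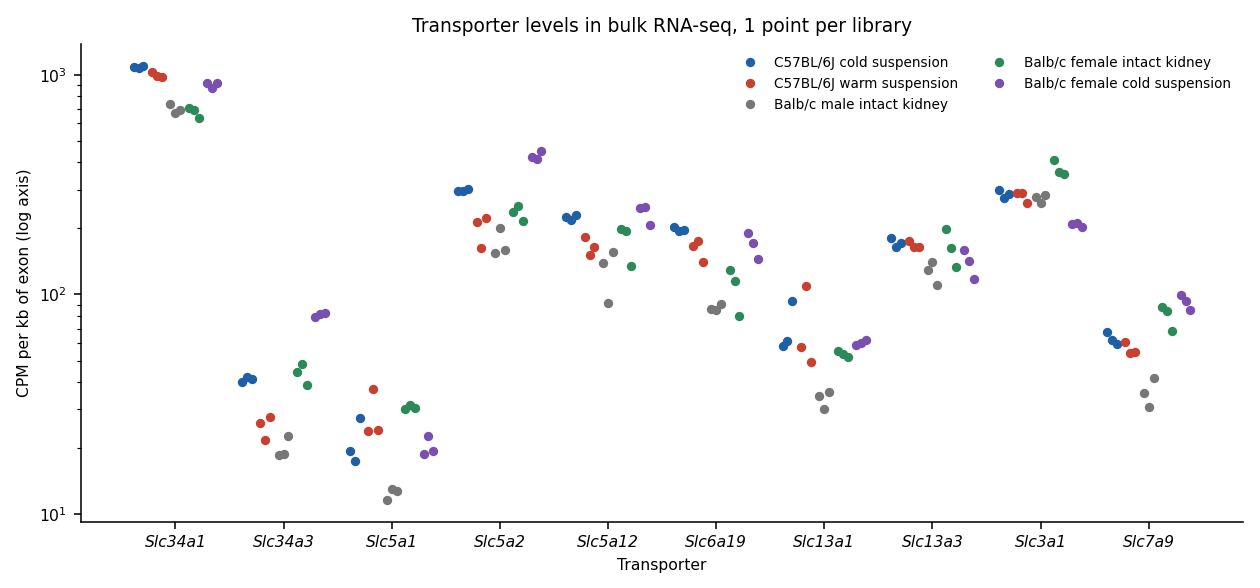
Level of each transporter in the 15 bulk RNA-seq libraries, as CPM per kb of exon on a log axis, with 1 point for each library and a color for each of the 5 groups. Slc34a1 lies above all other transporters in every group, and in Balb/c females Slc3a1 is higher and Slc34a3 and Slc5a2 are lower in intact kidneys than in cold suspensions.

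In the 10x libraries of fresh cells, fixed cells and nuclei, 9 of the 10 transporters were found mainly in proximal tubule-like barcodes, and Slc5a1 was divided between these and the ascending loop of Henle-like barcodes. Of the UMIs of the other 9, a share of 93.6 to 94.8% lay in proximal tubule-like barcodes of the cold fresh C57BL/6J cells, 90.8 to 96.1% in the male cells and 94.0 to 95.7% in the fresh female cells. In nuclei these shares were 80.4 to 84.6% in males and 82.1 to 93.0% in females prepared by SN_FANS_3x500g. They were 88.0 to 91.3% in cold and 92.5 to 96.8% in warm methanol-fixed cells, and 58.0 to 76.1% in cryopreserved female cells. Of the UMIs of all genes, proximal tubule-like barcodes held 57.1 to 65.0% in cold fresh C57BL/6J cells. They held 49.8 to 55.7% in male and 49.7 to 59.6% in fresh female cells. For these nuclei the values were 62.1 to 65.0% in males and 52.3 to 55.3% in females. They were 62.4 to 73.0% in cold and 76.5 to 81.1% in warm methanol-fixed cells, and 4.79 to 9.27% in cryopreserved female cells. In cryopreserved C57BL/6J cells, where few UMIs were left, the share was 40.0% for Slc34a1 and 0% for Slc13a3 after cold dissociation and 15.0% for Slc34a1 after warm dissociation. Of the 11 UMIs of Slc13a3 left after cold dissociation, 81.8% were in macrophage-like barcodes. Of the UMIs of Slc5a1, 42.2% were in proximal tubule-like and 52.3% in ascending loop of Henle-like barcodes of the cold fresh C57BL/6J cells. The proximal tubule-like share of Slc5a1 was 37.8% in male and 37.2% in female fresh cells. Pooled over libraries, it was above the loop-like share in warm fresh cells (61.4%), in cold and warm methanol-fixed cells (53.2% and 66.7%), in male nuclei (53.0%) and in female nuclei (54.5% to 55.6% by the 3 protocols). The 3 warm fresh libraries stood at 61.2, 70.1 and 37.1%. The CPM of Slc5a1 in endothelial-like barcodes was 104% of that in proximal tubule-like barcodes in cold methanol-fixed cells (7 UMIs) and 176% in male nuclei (27 UMIs). In these 2 groups the proximal tubule-like level was thus not above that background. The ascending limb follows the proximal tubule and reabsorbs salt, and it is known to hold SGLT1 in the mouse.

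Per UMI captured, Slc5a1 was highest in the ascending loop of Henle-like barcodes in each of the 12 groups in which it was listed above 0. Its level there was 325.0 ± 33.7 CPM (SD, n = 3) in cold fresh C57BL/6J cells, against 12.2 ± 1.29 CPM in proximal tubule-like and 2.59 ± 4.49 CPM in endothelial-like barcodes. In fresh female cells the loop-like level was 200.1 ± 24.2 CPM and the proximal tubule-like level 19.3 ± 3.51 CPM. The loop of Henle-like libraries and the proximal tubule-like libraries did not overlap in any group of cells, whereas Slc5a2 had the reverse order. In nuclei the gap was narrower, with 86.1 ± 18.7 CPM in loop-like and 42.2 ± 4.99 CPM in proximal tubule-like female nuclei, and the endothelial-like nuclei held 27.8 ± 4.66 CPM. These levels describe classes that were named from the same libraries, and no test was made between classes.

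**Figure D2:**
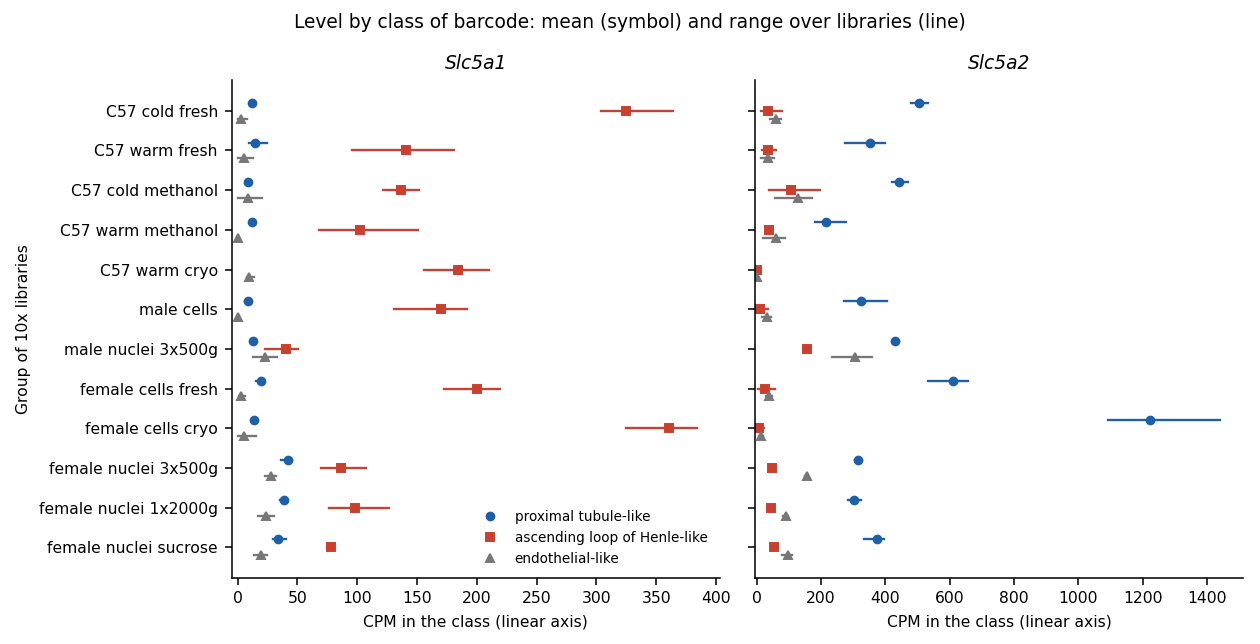
Level of Slc5a1 (left) and Slc5a2 (right) in proximal tubule-like, ascending loop of Henle-like and endothelial-like barcodes of 12 groups of 10x libraries, as CPM on a linear axis. Symbols are means over up to 3 libraries and lines run from the lowest to the highest library, and the proximal tubule-like symbol is left out for cryopreserved warm C57BL/6J cells, which held 22 such barcodes in all. Slc5a1 was highest in the loop-like barcodes in each group shown, and Slc5a2 in the proximal tubule-like barcodes wherever these are shown.

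Within the proximal tubule-like barcodes, sub-clusters with S1-S2 or S3 markers divided the transporters by segment. In all 9 groups that held both sub-clusters, the libraries of the S1-S2-like barcodes lay above those of the S3-like barcodes for Slc34a3, Slc5a2, Slc5a12, Slc6a19 and Slc7a9. The reverse held in all 9 groups for Slc5a1 and Slc3a1. In cold fresh C57BL/6J cells Slc5a2 was at 875.0 ± 29.4 CPM in S1-S2-like and 64.3 ± 16.4 CPM in S3-like barcodes, and Slc5a1 at 4.08 ± 2.63 and 44.0 ± 15.4 CPM. The pair of glucose carriers was thus split along the tubule as their known roles are. The phosphate carriers differed from each other, since Slc34a3 was at 135.0 ± 7.25 and 4.34 ± 4.95 CPM while Slc34a1 was at 4667 ± 267.0 and 3424 ± 236.0 CPM. Slc34a1 overlapped between the segments in 2 of the 9 groups, Slc13a1 in 4 and Slc13a3 in 3. The 2 subunits of the cystine carrier had opposite orders, with Slc3a1 higher in S3-like and Slc7a9 higher in S1-S2-like barcodes. The fresh and cryopreserved female cells held no S3-like cluster, and these levels are a description of clusters, with no test.

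Promoter sequences are shown for Slc3a1, the transporter whose promoter held the motifs searched, and for Slc5a1, the exception by class and after warm dissociation and storage. They are the 250 bases before the RefSeq start site on GRCm38.p6, and capitals mark matches to CAAAGTC, a core of the HNF4 motif, or to TATAAA, the TATA box, on either strand.
Slc3a1 (chr17:85028097-85028346, plus strand): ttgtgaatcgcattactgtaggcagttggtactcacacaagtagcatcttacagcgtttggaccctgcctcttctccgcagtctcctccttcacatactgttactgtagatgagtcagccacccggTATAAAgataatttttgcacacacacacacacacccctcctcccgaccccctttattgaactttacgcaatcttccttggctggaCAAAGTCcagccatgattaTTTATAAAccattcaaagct
Slc5a1 (chr5:33103969-33104218, plus strand): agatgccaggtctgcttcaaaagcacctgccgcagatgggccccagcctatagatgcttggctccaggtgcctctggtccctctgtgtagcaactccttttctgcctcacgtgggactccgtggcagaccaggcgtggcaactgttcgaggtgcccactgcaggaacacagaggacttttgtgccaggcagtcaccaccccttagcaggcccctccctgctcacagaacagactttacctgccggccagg
The Slc3a1 sequence holds CAAAGTC once and TATAAA at 3 places, of which those nearest the start overlap on opposite strands, and the Slc5a1 sequence holds neither. Of 32851 promoters of the same length, 3.84% held CAAAGTC and 12.4% TATAAA. Of the 8 promoter sequences found for 7 of the transporters, that of Slc3a1 was the 1 that held either motif, and it was chosen for display for that reason. These matches are letters in a window and not measured sites.

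Cryopreservation left few transporter transcripts in the C57BL/6J libraries, with Slc5a1 after warm dissociation as the exception. The summed level of the 10 transporters was 3475 ± 276 CPM (SD, n = 3) in cold fresh and 15.0 ± 2.82 CPM in cold stored libraries, and 4472 ± 189.8 and 43.8 ± 10.3 CPM after warm dissociation. The comparison asks which cells and transcripts a frozen and thawed suspension still holds. Summed over all barcodes, Slc34a1 stood at 2541, 2047 and 2235 CPM in the 3 cold fresh libraries and at 13.0, 8.99 and 18.2 CPM in the cryopreserved ones (log2 fold change -7.64 ± 0.26, adjusted p = 5.53e-06). Here and below a fold change is a difference of log2 values from edgeR, its SE is the fold change divided by the root of its F statistic, and p-values are adjusted over all genes tested. After warm dissociation it stood at 3322, 2823 and 3189 CPM fresh and 31.7, 16.6 and 20.9 CPM cryopreserved (log2 fold change -7.45 ± 0.19, adjusted p = 1.57e-06). Fresh and stored libraries did not overlap for this gene in either protocol.

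Apart from Slc34a1, Slc13a3 was listed with 11 UMIs in a single cold stored library, Slc5a1 was listed in the warm stored libraries, and the others were at 0 in all 6 stored libraries. By edgeR 10 of 10 transporters were called lower after cold dissociation and storage, where 29.7% of 11530 genes tested were, and 9 of 10 after warm dissociation, where 34.2% of 10832 were. In each protocol 8 of these had no count in any stored library and passed the filter on low counts through the fresh libraries alone, so that nothing is read from the count of calls or from its share. Setting each 0 to 9 UMIs, which is what 9 barcodes with a UMI each would give, puts bounds on the loss under the assumption that a gene removed as too rare had no more than that. With that floor for each library, the mean of the fresh libraries was at least 63.3-fold higher for Slc5a2, 38.6-fold for Slc6a19 and 9.73-fold for Slc34a3 in the cold-dissociated cells. In the warm-dissociated cells the bounds were 44.3-fold for Slc5a2, 61.5-fold for Slc13a1 and 7.69-fold for Slc34a3. The bounds follow the fresh level of each gene, so that they do not rank the losses.

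Slc5a1 took another course after warm dissociation. It stood at 11.7, 25.7 and 20.1 CPM in the fresh and at 22.8, 17.3 and 22.1 CPM in the cryopreserved libraries (log2 fold change -0.30 ± 0.33, adjusted p = 0.462). The groups overlapped, and the difference was not past the threshold. After cold dissociation the same gene fell from 15.3, 18.5 and 17.5 CPM to a listing at 0 in all 3 stored libraries, with a bound of at least 3.34-fold. The difference between the protocols was called for Slc5a1 by edgeR (adjusted p = 0.00682, and 0.033 with zeros set to 9 UMIs), where 2.06% of 11821 genes were called higher in the same sense. The cold stored libraries held no count of Slc5a1, and 9 UMIs is the same set count for each of them. It carries no spread between libraries, so that nothing is read from these p-values. With a term for each suspension the fitted difference was about as large, at 8.72 against 8.64 on the log2 scale, both of which depend on the prior count, while the adjusted p of 0.0506 missed the threshold, and 43 genes were called higher in place of 244. Of the 92 UMIs of Slc5a1 in the warm stored libraries, 71.7% were in ascending loop of Henle-like barcodes and 0% in proximal tubule-like barcodes. The warm stored libraries held 406 loop-like barcodes, and the 2 cold stored libraries with at least 10 of them held 48.

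The repeated experiment, in Balb/c females and with stronger spins, kept more of the tubule. Proximal tubule-like barcodes made up 49.8 to 57.4% of the fresh libraries and 5.12 to 7.52% of the cryopreserved ones. All 10 transporters were called lower in the sums over all barcodes, where 29.9% of 11934 genes were, and every transporter was listed above 0. The median log2 fold change was -2.43 over the transporters and 0.00 over all genes. Slc34a1 stood at 1974, 2329.6 and 1869 CPM fresh and 341, 688 and 315 CPM stored (log2 fold change -2.63 ± 0.29, adjusted p = 0.000102). The fall was largest for Slc13a3 (log2 fold change -3.52 ± 0.18, adjusted p = 2.94e-06) and smallest for Slc5a1 (log2 fold change -0.81 ± 0.19, adjusted p = 0.00666). Slc13a1 stood at 341, 403 and 326 CPM fresh and 52.6, 69.1 and 45.6 CPM stored, and Slc5a1 at 28.1, 32.5 and 26.5 and 21.6, 29.0 and 15.9 CPM. For Slc5a1 the stored libraries overlapped the fresh ones in CPM and lay below them once scaled by TMM, the scaling of edgeR. Of its UMIs after storage, 87.2% were in loop-like barcodes and 4.13% in proximal tubule-like barcodes.

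**Figure D3:**
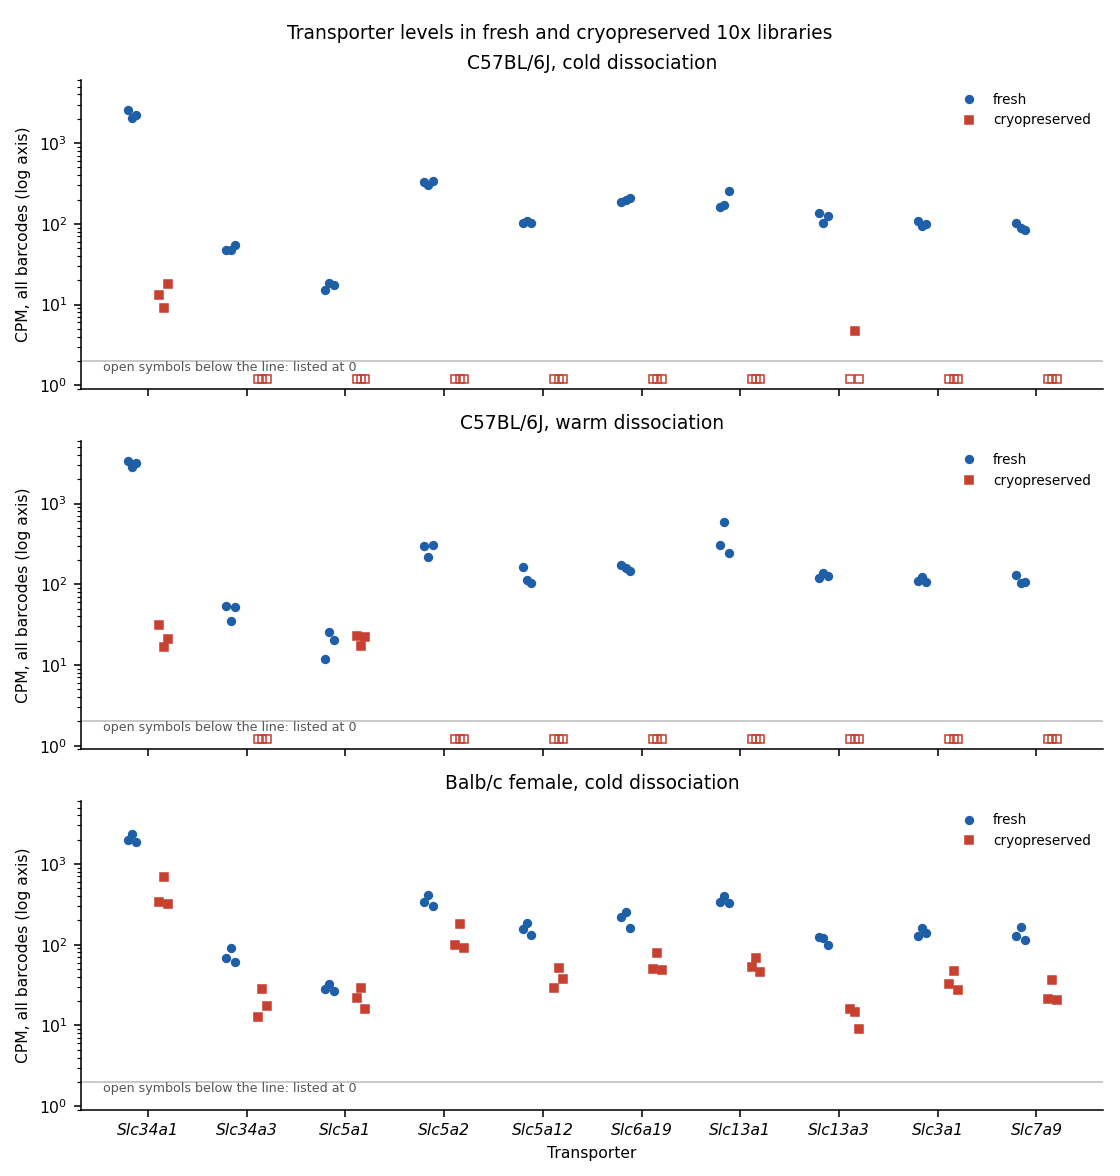
CPM of each transporter summed over all barcodes, on a log axis, in fresh (blue circles) and cryopreserved (red squares) 10x libraries of the 3 comparisons with storage, 1 point for each library. Open squares under the gray line are libraries that list the gene at 0, which may stand for removal as too rare. Stored and fresh libraries overlap for Slc5a1 after warm dissociation and, in Balb/c females, for Slc5a1 too, and in the females all 10 transporters remain above 0.

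Within the proximal tubule-like cells that the stored female libraries still held, the transporters did not fall as a group. Sums over 264 such barcodes in the 3 stored libraries were compared with sums over 9335 in the fresh ones. Of the 10 transporters 4 were higher after storage, where 4.00% of 9626 genes were, and 2 were lower, where 7.97% were, with a median log2 fold change of 0.34 for the transporters and 0.01 for all genes. Slc5a2 rose from 643, 659 and 534 CPM to 1093, 1441 and 1139 CPM (log2 fold change 0.82 ± 0.12, adjusted p = 0.000173), and the groups did not overlap. Slc6a19 rose as well (log2 fold change 0.73 ± 0.14, adjusted p = 0.0012), as did Slc5a12 (log2 fold change 0.47 ± 0.14, adjusted p = 0.0297) and Slc3a1 (log2 fold change 0.40 ± 0.13, adjusted p = 0.0442), though for the last pair the stored libraries, higher in CPM, overlapped the fresh ones once scaled by TMM.

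The carriers of sulfate and of dicarboxylates moved the other way. Slc13a1 stood at 656, 642 and 577 CPM fresh and 509.6, 494 and 499 CPM stored (log2 fold change -0.52 ± 0.11, adjusted p = 0.00413), and Slc13a3 at 229.9, 190.5 and 175 and 184, 117 and 99.8 CPM (log2 fold change -0.79 ± 0.19, adjusted p = 0.00864), where 1 stored library reached into the fresh range in CPM. Slc34a1, at 4460.2, 5975 and 4592 CPM in the stored cells, did not pass the test (adjusted p = 0.141). The share of S1-S2-like among proximal tubule-like barcodes was 22.9 to 27.9% in the fresh and 36.7 to 60.3% in the stored libraries, and its part in these differences was not tested. Slc5a12 and Slc13a3 lost their calls without stored replicate 2 or 3, Slc3a1 without stored replicate 1 or 2, and Slc13a1 without fresh replicate 1 or 2. Slc34a3 was called higher without stored replicate 1 or fresh replicate 1 or 2, and Slc34a1 without stored replicate 1. Slc5a2 and Slc6a19 were called with each library left out, with log2 fold changes of 0.65 to 0.97 and 0.66 to 0.93. In the C57BL/6J experiment the 14 and 22 stored proximal tubule-like barcodes were too few for this comparison.

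Which transporters were called after warm dissociation depended on what was counted, and no transporter was called in opposite directions. In bulk RNA of the suspensions 4 of 10 transporters were called, all lower after warm dissociation, where 3.26% of 14102 genes were called lower and 5.42% higher. The median log2 fold change of the transporters was -0.16, and that of all genes -0.01. Slc34a3 stood at 40.0, 42.0 and 41.2 CPM per kb cold and 25.9, 21.8 and 27.8 warm (log2 fold change -0.73 ± 0.09, adjusted p = 0.000341), and Slc5a2 at 297, 295 and 302 and 214, 163 and 224 (log2 fold change -0.60 ± 0.10, adjusted p = 0.00331). Slc5a12 (log2 fold change -0.47) and Slc6a19 (-0.33) were lower too, and none of these 4 overlapped between the protocols. All 4 belong to the transporters that were higher in S1-S2-like barcodes in all 9 groups, but so does Slc7a9, which was not called. Slc3a1 and Slc5a1, which had the reverse order, were not called either. The part of the segments in these differences was not tested. Slc34a1, Slc13a1, Slc13a3, Slc3a1, Slc7a9 and Slc5a1 did not pass the test, with adjusted p from 0.138 to 0.988. Slc6a19 was no longer called without warm replicate 1 or 3 or any of the 3 cold replicates (log2 fold change -0.38 to -0.23). In bulk RNA, fewer cells of a type and less RNA per cell cannot be told apart.

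In the 10x libraries of the same suspensions, sums over all barcodes had 2 transporters called, both higher after warm dissociation, where 8.27% of 12051 genes were higher and 6.90% lower. They were Slc34a1 (log2 fold change 0.60 ± 0.09, adjusted p = 0.00514) and Slc7a9 (log2 fold change 0.47 ± 0.11, adjusted p = 0.0244), and Slc7a9 was lost without warm replicate 1 or 3 or cold replicate 2 or 3 (log2 fold change 0.40 to 0.54), while Slc13a1 was called higher without warm replicate 3. Proximal tubule-like barcodes made up 58.4 to 69.8% of the cold and 70.1 to 72.9% of the warm libraries. Within these barcodes 2 transporters were called, both lower, where 3.78% of 9653 genes were lower and 2.82% higher. Slc5a2 stood at 479, 506 and 533 CPM cold and 388, 276 and 398 CPM warm (log2 fold change -0.46 ± 0.13, adjusted p = 0.0491), and Slc6a19 at 268, 327 and 334 and 223, 204 and 190.3 CPM (log2 fold change -0.53 ± 0.11, adjusted p = 0.0234). Neither overlapped between the protocols.

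The S1-S2-like share of the proximal tubule-like barcodes was 36.0 to 41.3% cold and 28.7 to 32.2% warm, and the S3-like share 9.25 to 14.8% and 17.8 to 26.4%, and their part in the 2 calls was not tested. Both calls were lost without warm replicate 1 or 3 or cold replicate 2 or 3, that of Slc5a2 also without warm replicate 2 (log2 fold changes -0.55 to -0.33 for Slc5a2 and -0.63 to -0.47 for Slc6a19). Without cold replicate 1, Slc34a1 was called higher. Slc13a1 spread widely, at 237, 284 and 411 CPM cold and 389.8, 769 and 326 CPM warm, and its difference did not pass the test (adjusted p = 0.117).

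Intact female kidneys and cold suspensions of female kidneys differed in 6 of the 10 transporters. The comparison concerns RNA before any cell is captured. The intact kidneys were flash-frozen and the suspensions came from kidneys dissociated fresh, so that dissociation and freezing cannot be told apart. Of the 10, 2 were higher in the intact kidney, where 12.1% of 16538 genes were, and 4 were lower, where 7.91% were. Slc3a1 stood at 409, 361 and 354 CPM per kb in intact kidneys and 209, 212 and 203 in suspensions (log2 fold change 0.87 ± 0.07, adjusted p = 4.57e-05), and Slc5a1 at 30.2, 31.3 and 30.6 and 18.8, 22.8 and 19.5 (log2 fold change 0.60 ± 0.07, adjusted p = 0.000276). These 2 are the transporters that were higher in S3-like than in S1-S2-like barcodes in all 9 groups. Slc5a12 and Slc7a9, which had the reverse order in all 9, were not called, and the part of the segments was not tested.

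The 4 that were lower in the intact kidney were the phosphate carriers, the glucose carrier of the early tubule and the neutral amino acid carrier. Slc34a3 stood at 44.4, 48.5 and 38.8 CPM per kb in intact kidneys and 79.0, 81.4 and 82.5 in suspensions (log2 fold change -0.87 ± 0.08, adjusted p = 7.46e-05). Slc5a2 was at 238, 252 and 216 and 424, 414 and 449.9 (log2 fold change -0.85 ± 0.07, adjusted p = 5.54e-05). Slc6a19 (log2 fold change -0.63 ± 0.17, adjusted p = 0.0258) and Slc34a1 (log2 fold change -0.40 ± 0.08, adjusted p = 0.00594) differed less, and intact kidneys and suspensions did not overlap for any of the 6 called genes. Slc5a12, Slc13a1, Slc13a3 and Slc7a9 did not pass the test, with adjusted p from 0.0846 to 0.307. Slc6a19 was no longer called without intact replicate 2 or suspension replicate 1 or 2 (log2 fold change -0.79 to -0.45), and Slc13a1 was called lower without intact replicate 1.

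Methanol fixation kept the transporters in the libraries. The comparisons with methanol and with cryopreservation share the fresh libraries, and fixation here includes the storage for 3 months. Proximal tubule-like barcodes made up 67.9 to 74.4% of the cold and 75.9 to 80.6% of the warm methanol libraries. In sums over all barcodes 3 of 10 transporters were called after cold dissociation, all higher after fixation, where 14.5% of 12004 genes were higher and 13.6% lower. They were Slc34a3 (log2 fold change 0.49), Slc6a19 (0.43) and Slc7a9 (0.40). Slc6a19 stood at 185, 198 and 211 CPM fresh and 240.1, 215 and 255 CPM fixed. With the suspension as a block, as the barcodes name it, 4 were higher and 1 lower. Scaled by library totals alone, 1 transporter was called, and it was lower, as the median of all genes moved from -0.07 to -0.25. The share of all genes called is not given for these settings, so that nothing is read from their counts. All 3 calls were lost without fixed replicate 1 or 3 or fresh replicate 2, Slc7a9 alone remained without fresh replicate 1, and Slc7a9 alone was lost without fresh replicate 3 (log2 fold changes 0.37 to 0.59 for Slc34a3, 0.32 to 0.50 for Slc6a19 and 0.35 to 0.48 for Slc7a9).

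After warm dissociation 1 transporter was called, Slc34a1, which was lower after fixation (log2 fold change -0.37 ± 0.09, adjusted p = 0.0279), where 10.3% of 10861 genes were lower and 6.97% higher. It stood at 3322, 2823 and 3189 CPM fresh and 2173, 2168 and 2637 CPM fixed. With the suspension as a block 4 transporters were lower, a count from which nothing is read, since the share of all genes called is not given. The call of Slc34a1 was lost without fixed replicate 1 or any of the 3 fresh replicates (log2 fold change -0.44 to -0.32), Slc5a2 was called lower without fixed replicate 3, and Slc6a19 higher without fixed replicate 1. The difference between the protocols in the effect of methanol was not past the threshold of edgeR for any transporter, with adjusted p from 0.199 to 1 and 2 of 10 under an unadjusted p of 0.05. No gene at all was called in that test by edgeR, 1287 of 12029 were under an unadjusted p of 0.05, and DESeq2 called 35 higher and 143 lower, none of them among the 10 transporters. That test does not use that fresh and fixed aliquots share a suspension. With a term for each suspension, edgeR called 15 genes higher and 23 lower in warm against cold, among them Slc13a1 (difference of log2 fold changes -0.80, adjusted p = 0.0287).

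Within proximal tubule-like cells, 3 of 10 transporters were lower after fixation in each protocol. After cold dissociation, where 11.5% of 9658 genes were lower and 10.4% higher, they were Slc34a1 (log2 fold change -0.34 ± 0.09, adjusted p = 0.0134), Slc5a12 (-0.45) and Slc3a1 (-0.42). Slc34a1 stood at 3759, 3397 and 3529 CPM fresh and 2867, 2487 and 2739 CPM fixed. After warm dissociation, where 6.73% of 9157 genes were lower and 4.77% higher, they were Slc34a1 (log2 fold change -0.53 ± 0.09, adjusted p = 0.00403), Slc5a12 (-0.59) and Slc5a2 (-0.74). Slc5a2 stood at 388, 276 and 398 CPM fresh and 182, 187 and 278 CPM fixed, and the groups overlapped by a narrow margin in CPM but not once scaled by TMM. The other 5 differences had no overlap.

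The S3-like share of the proximal tubule-like barcodes was 9.25 to 14.8% fresh and 4.85 to 10.2% fixed after cold dissociation, and 17.8 to 26.4% and 11.4 to 12.8% after warm dissociation. The S1-S2-like share was 36.0 to 41.3% and 33.0 to 39.9% cold and 28.7 to 32.2% and 25.2 to 31.6% warm. Within the cold segments, Slc34a1 was at 4667 ± 267.0 CPM fresh and 3556 ± 303.0 CPM fixed in S1-S2-like barcodes, and at 3424 ± 236.0 and 2846 ± 189.7 CPM in S3-like ones. Slc3a1 was at 160.4 ± 5.04 and 107.0 ± 15.3 CPM in S1-S2-like and at 235.0 ± 15.6 and 235.0 ± 8.85 CPM in S3-like barcodes. Slc34a1 thus did not overlap between fresh and fixed in either segment, and Slc3a1 did not in the S1-S2-like but did in the S3-like barcodes, with no test. The part of the segment shares in the calls was not tested.

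With the suspension as a block 5 were lower after cold and 4 after warm dissociation. The share of all genes called with the block is not given, so that nothing is read from these counts. The cold calls were all lost without fixed replicate 2, and that of Slc34a1 alone remained without fresh replicate 2. Of the warm calls, Slc34a1 held with each library left out, Slc5a12 was lost without any of the 3 fixed replicates or fresh replicate 1 (log2 fold change -0.71 to -0.42), and Slc5a2 without fixed replicate 1 or fresh replicate 1 or 3 (-0.91 to -0.63). Without fixed replicate 2, Slc13a1 was called lower. The log2 fold changes of Slc34a1 with 1 library left out were -0.38 to -0.29 after cold and -0.59 to -0.48 after warm dissociation. The level of the transporters in endothelial-like barcodes, which should lack them, was 7.51 to 16.6% of that in proximal tubule-like barcodes in cold fresh and 27.1 to 41.2% in cold fixed libraries, over the 9 transporters other than Slc5a1. In the warm libraries it was 6.61 to 13.5% fresh and 2.54 to 40.8% fixed. The ends of the fixed range rest on few endothelial-like UMIs, 2 of Slc6a19 and 9 of Slc7a9. The part of such background in the calls was not tested. Thinned to 500 UMIs, a UMI of Slc34a1 was seen in 73.5 ± 1.86% of the proximal tubule-like and 12.1% of the endothelial-like barcodes of cold fresh cells, and in 65.4 ± 2.48% and 28.8% after fixation, over the 5248 fresh and 4756 fixed proximal tubule-like barcodes that deep. Unthinned, the proximal tubule-like shares were 76.4% and 65.6%.

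In endothelial-like sums 1 to 5 transporters passed the filter on low counts in each comparison with storage or fixation. A transporter near 0 in 1 group passes that filter through the other group, so that nothing is read from the calls in these sums. Slc34a1, the one with the most UMIs in the fresh and the fixed ones, had 63, 117 and 155 UMIs in the endothelial-like barcodes of the 3 cold fresh libraries, 2, 2 and 2 in the cryopreserved and 50, 267 and 258 in the fixed ones. These are 366, 303 and 429 CPM fresh, 6.36, 3.93 and 6.11 CPM cryopreserved and 589, 869 and 1036 CPM fixed, so that the cryopreserved libraries lay below and the fixed ones above all the fresh ones.

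**Figure D4:**
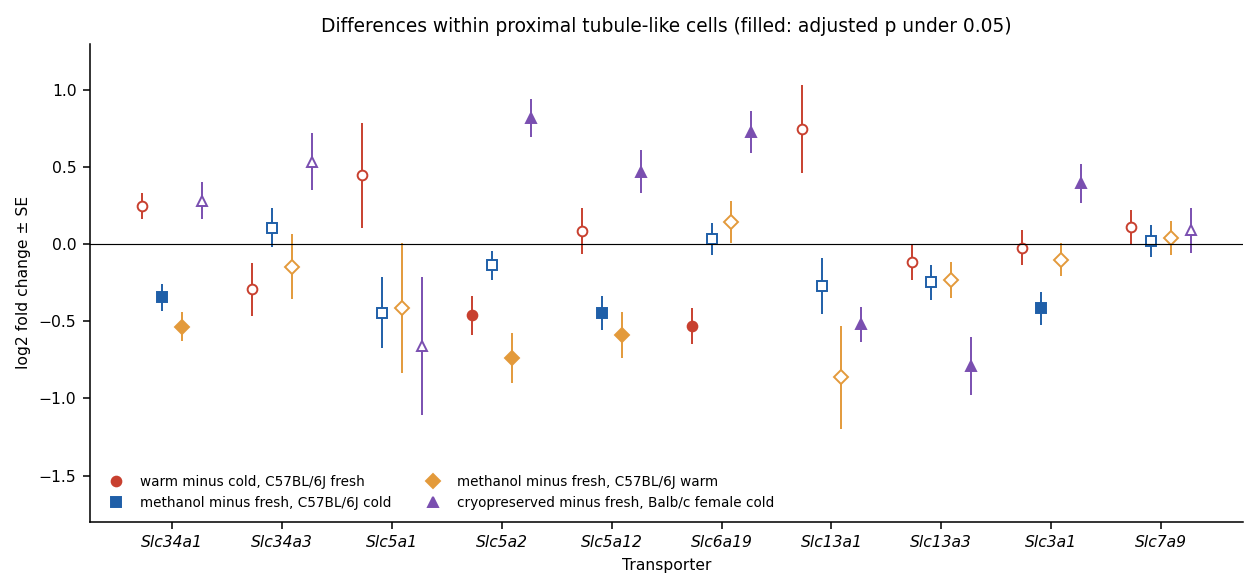
Log2 fold change of each transporter within proximal tubule-like cells, with its SE, for warm against cold dissociation, for methanol against fresh after each dissociation, and for cryopreserved against fresh female cells. Filled symbols have an adjusted p under 0.05. Slc5a2, Slc5a12 and Slc6a19 are higher in the cryopreserved cells (0.82, 0.47 and 0.73), while Slc13a1 and Slc13a3 are lower (-0.52 and -0.79).

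Nuclei held all 10 transporters, and in sums over all proximal tubule-like barcodes of females their levels against those of cells ranked much as the length of the gene did, less so in males. The shares of these barcodes in clusters named for a segment differed as well. The comparison asks whether nuclei of frozen kidney give the same picture as fresh cells. Cells were counted on exons only and nuclei on introns and exons, so that a long gene had more sequence to be counted from in nuclei. Over all 12397 genes tested in female proximal tubule-like sums, 44.9% were higher and 40.8% lower in SN_FANS_3x500g nuclei. Of the 10 transporters 5 were higher and 5 lower. The 5 that were higher span 35.9 to 79.8 kb of the genome and the 5 that were lower 5.47 to 25.1 kb.

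Slc5a12, which spans 50.5 kb, stood at 303, 293 and 238 CPM in female proximal tubule-like cells and 1688, 1622 and 1612 CPM in nuclei (log2 fold change 1.80 ± 0.13, adjusted p = 1.42e-07). Slc5a2, which spans 6.77 kb, stood at 643, 659 and 534 CPM in cells and 307, 313 and 327 CPM in nuclei (log2 fold change -1.72 ± 0.12, adjusted p = 1.28e-07). Cells and nuclei did not overlap for either gene. Slc13a3 (log2 fold change 1.24 ± 0.14, adjusted p = 9.29e-06), Slc13a1 (0.85), Slc5a1 (0.34) and Slc3a1 (0.24) were the others that were higher. Slc34a3 (log2 fold change -1.50 ± 0.13, adjusted p = 6.14e-07), Slc7a9 (-1.0), Slc34a1 (-0.91) and Slc6a19 (-0.82) were the others that were lower. Of these, Slc34a1, Slc7a9 and Slc6a19 overlapped between cells and nuclei in CPM and not once scaled by TMM. Without replicate 1 or 3 of the cells, 3 were called higher, since Slc5a1 and Slc3a1 lost their calls, and Slc5a1 lost its call also without nuclei replicate 3 (log2 fold changes 0.20 to 0.52 for Slc5a1 and 0.20 to 0.35 for Slc3a1).

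Clusters named for the segments made up unlike shares of these barcodes. S3-like barcodes were 20.8 to 24.8% of the proximal tubule-like female nuclei, and the fresh female cells held no cluster named so. In males the S3-like share was 7.09 to 13.0% of cells and 15.0 to 20.2% of nuclei. The S1-S2-like shares were 22.9 to 27.9% of female cells and 23.1 to 26.0% of female nuclei, and 21.2 to 23.8% and 12.2 to 20.2% in males. Most proximal tubule-like male cells, male nuclei and fresh female cells lay in clusters named for neither segment, so that these shares follow the naming of clusters. That no cluster of female cells was named S3-like does not show that S3 cells were absent. The levels that follow are CPM without the TMM scaling used for the calls. Within the S1-S2-like barcodes of females, Slc5a2 alone of the 5 transporters called lower had all nuclei below all cells (1289 ± 48.5 CPM in cells and 1119.8 ± 72.2 CPM in nuclei). Slc34a3 stood at 275.0 ± 13.2 CPM in cells and 295.0 ± 2.11 CPM in nuclei, with all nuclei above all cells. Slc34a1 (5249 ± 278.0 and 5396 ± 427.0 CPM), Slc6a19 (703.0 ± 97.0 and 1094 ± 281.0) and Slc7a9 (329.0 ± 36.6 and 318.0 ± 65.1) overlapped between cells and nuclei. Of the 5 called higher, Slc5a12 (541.0 ± 21.8 and 4812 ± 98.4 CPM), Slc13a1 (742.0 ± 32.8 and 2079 ± 268.0) and Slc13a3 (125.0 ± 26.9 and 223.0 ± 45.8) were higher in nuclei there too without overlap. Slc3a1 (239.0 ± 13.0 and 255.0 ± 12.3) and Slc5a1, with 20 and 36 UMIs in all, overlapped. In the sums over all proximal tubule-like barcodes, leaving out TMM alone moved the transporters called lower from 5 to 2. It moved the median of all genes from 0.15 to 0.91. The levels within a segment are thus on another scale than the calls. They are a description with no test, and the part of the segment shares in the calls was not tested.

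Across the 10 transporters the rank correlation (Spearman) of gene span with the female log2 fold change was 0.903, and over all 12046 genes with a span 0.628. With the male log2 fold change it was 0.552 for the transporters and 0.497 over all 11720 genes with a span. These points share the same libraries, so the correlations describe them and carry no test. The median log2 fold change of all genes was -0.989 under a span of 30 kb and 1.36 at 30 kb or more. The median of the 5 transporters under 30 kb was -0.995, and that of the 5 longer ones 0.853. In males the medians of the shorter and the longer transporters were 0.128 and 1.03, and those of all genes -0.222 and 1.79. The part of the counting in these differences was not tested. Scaled by library totals alone, which moved the median of all genes from 0.15 to 0.91, 5 were higher and 2 lower in females. The share of all genes called at that scaling is not given, and nothing is read from these counts.

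In males 5 of the 10 transporters were higher in proximal tubule-like nuclei, where 51.9% of 12089 genes were higher and 28.2% lower, and the median gene was higher by 0.76. They were Slc5a12 (log2 fold change 2.43 ± 0.16, adjusted p = 1.14e-08), Slc13a1 (1.89), Slc13a3 (1.03), Slc34a1 (0.52) and Slc3a1 (0.42). Of these, the first 3 stood above the median gene and the other 2 below it. Slc5a12 was at 102, 104 and 119.8 CPM in cells and 899, 789 and 735 CPM in nuclei. Slc5a2 was at 296, 273 and 407 and 429, 443 and 424 CPM, and it did not pass the test (log2 fold change -0.04, adjusted p = 0.8). Library totals alone moved the median of all genes from 0.76 to 1.24 and Slc5a2 by a like amount, to 0.42 (adjusted p = 0.0198), which is below the median gene under either scaling. Without male cell replicate 1, 3 transporters were called higher, since Slc34a1 and Slc3a1 lost their calls, and Slc3a1 lost its call also without cell replicate 2 or nuclei replicate 2 (log2 fold changes 0.41 to 0.56 for Slc34a1 and 0.31 to 0.50 for Slc3a1). Without cell replicate 2, Slc6a19 was called lower.

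In sums over all barcodes 9 transporters were higher in male nuclei, where 53.6% of 14027 genes were higher and 27.6% lower, with Slc5a1 as the exception (adjusted p = 0.72). Of the 9, Slc34a3 and Slc6a19 lost their calls without cell replicate 1 or 2 or nuclei replicate 2, and Slc34a3 also without nuclei replicate 1 (log2 fold changes 0.59 to 1.15 and 0.35 to 0.57). In females 4 were higher and 4 lower, where 43.8% and 41.0% of 13762 genes were, and Slc5a1 (adjusted p = 0.713) and Slc6a19 (adjusted p = 0.148) did not pass the test. The summed level of the 10 transporters was 1956 ± 335 CPM in male cells and 5599 ± 238 CPM in male nuclei, while the summed level of the 17 proximal tubule markers listed in all 10x libraries was 26283 ± 787 and 13119 ± 900.0 CPM. Proximal tubule-like barcodes made up 49.0 to 55.8% of the male cells and 52.3 to 58.1% of the male nuclei. The summed transporters were thus higher and the summed markers lower in male nuclei, with no overlap of the libraries at a like share of barcodes.

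**Figure D5:**
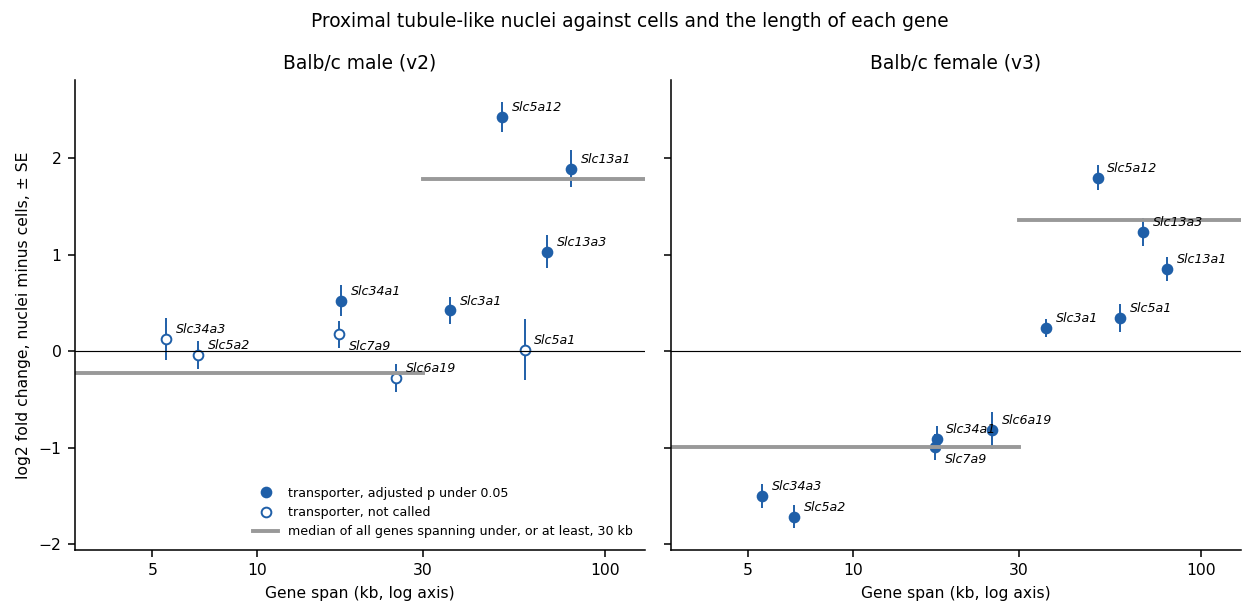
Log2 fold change of each transporter, nuclei by SN_FANS_3x500g minus cells, with its SE, in proximal tubule-like sums of Balb/c males (left) and females (right), against the genomic span of the gene in kb on a log axis. Gray lines are the medians of all genes that span under 30 kb and of those that span at least 30 kb. In females the 5 transporters over 30 kb lie above 0 and the 5 shorter ones below it.

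The difference between nuclei and cells was itself different between the 2 experiments for 6 of 10 transporters, all less in favor of nuclei in females, where 42.0% of 12279 genes were called in that direction and the median gene differed by -0.81. Slc5a2 (log2 fold change -1.75 ± 0.19, adjusted p = 1.98e-06), Slc34a3 (-1.70), Slc34a1 (-1.50), Slc7a9 (-1.24) and Slc13a1 (-1.11) differed by more than the median gene, and Slc5a12 (-0.70) by less. The scaling moved these counts. With RLE size factors the median gene differed by -0.31, 2928 genes were called lower in place of 5161, and 4 transporters were called lower and 1 higher. With library totals alone the median gene differed by -0.48, 3582 genes were called lower, and 5 transporters were. Sex, age, chemistry, use as breeders and time of the experiment differ between them and cannot be told apart.

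Endothelial-like nuclei, which should lack these carriers, held much of them. The level of the 9 transporters other than Slc5a1 in endothelial-like nuclei was 58.8 to 73.2% of that in proximal tubule-like nuclei in males, and 20.4 to 49.4% in females by SN_FANS_3x500g. In fresh female cells it was 3.27 to 7.73%. Thinned to 500 UMIs, Slc34a1 was seen in 78.1 ± 2.61% of proximal tubule-like and 56.5% of endothelial-like male nuclei, and Slc5a1 in 0.650 ± 0.205% and 0.686%. The share for Slc5a1 is at the background of these nuclei. In female nuclei by SN_FANS_3x500g the thinned shares for Slc34a1 were 70.6 ± 2.40% and 16.6%. Unthinned, the proximal tubule-like shares in males were 90.1% and 1.53%, at a median of 1066 to 1237 UMIs for each barcode.

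Each of the other ways to prepare female nuclei had 3 of the 10 transporters called against SN_FANS_3x500g. Of all genes, 3645 of 15066 were called for SN_FANS_1x2000g and 5348 of 14860 for SN_sucrose. Nothing particular to the transporters is thus read from the number called. Within proximal tubule-like nuclei 3 of 10 were lower by SN_FANS_1x2000g than by SN_FANS_3x500g, where 9.25% of 15066 genes were lower and 14.9% higher. They were Slc34a1 (-0.30), Slc34a3 (-0.29) and Slc3a1 (-0.29). Leaving out any replicate of the 1x2000g nuclei or replicate 3 of the 3x500g nuclei ended all 3 calls, and leaving out 3x500g replicate 1 or 2 left 1 (log2 fold changes -0.33 to -0.27 for Slc34a1, -0.33 to -0.24 for Slc34a3 and -0.33 to -0.25 for Slc3a1). By SN_sucrose 3 were lower than by SN_FANS_3x500g, where 17.3% of 14860 genes were lower and 18.7% higher. They were Slc13a3 (log2 fold change -0.63 ± 0.21, adjusted p = 0.046), Slc3a1 (-0.55) and Slc13a1 (-0.45), with Slc3a1 at 456, 539 and 509 CPM in the sorted and 361, 299 and 380.0 CPM in the sucrose nuclei. Slc13a3 overlapped between the protocols. With 1 library left out Slc3a1 held its call throughout (log2 fold change -0.61 to -0.44), Slc13a3 lost it without sucrose replicate 1 or 2 or 3x500g replicate 2 or 3 (-0.93 to -0.46), and Slc13a1 without sucrose replicate 1 or 3 or 3x500g replicate 3 (-0.55 to -0.36). Slc5a1 was called lower without sucrose replicate 3 or 3x500g replicate 1, and Slc5a2 higher without sucrose replicate 3. Both comparisons share the 3 libraries of SN_FANS_3x500g. The S3-like share was 21.9 to 23.2% by SN_FANS_1x2000g and 24.5 to 25.7% by SN_sucrose, and its part in the calls was not tested.

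Partners and scaffolds of these carriers were mostly lower in nuclei. Tmem27, the collectrin that brings the Slc6a19 carrier to the membrane, and Pdzk1ip1, a partner of SGLT2, belong to a list of 5 partners and scaffolds. All 5 were lower in female proximal tubule-like nuclei than in cells, with log2 fold changes down to -4.66 for Tmem27 and -4.16 for Pdzk1ip1, beside -0.82 for Slc6a19 and -1.72 for Slc5a2. In males 4 of the 5 were lower, where 40.8% of all genes in females and 28.2% in males were. Of 13 other sodium-coupled carriers, 11 of the 13 tested in females and 12 of the 12 tested in males were higher in nuclei, where 44.9% and 51.9% of all genes tested were, among them Slc5a11 (1.05 and 1.83), a carrier of inositol. Atp1b1 and Fxyd2, which are subunits of the sodium pump, were lower in nuclei in both experiments, with Atp1b1 at -1.58 in females and -1.55 in males.

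After cryopreservation of female cells most other transport genes were lower too in the sums over all barcodes. Of 35 genes in 6 lists of transport genes, 29 were tested and 24 of them were lower, where 29.9% of all genes tested were. The log2 fold change was -2.90 for Tmem27 and -2.92 for the scaffold Pdzk1. The genes that were higher in each of the cold C57BL/6J, warm C57BL/6J and female comparisons were Slc9a3r2 (1.54, 1.90 and 1.58), a scaffold, and Slc20a1 (0.76, 0.89 and 0.47), a phosphate carrier that many cell types use. Within the stored female proximal tubule-like cells, 2 of 29 tested list genes were higher and 3 lower, which is near the share over all genes (4.00% higher and 7.97% lower of 9626).

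In the bulk comparisons most of the basolateral exit carriers were lower. Of 6 such carriers 4 were lower and 1 higher after warm dissociation, where 3.26% of all genes tested were lower and 5.42% higher. In intact female kidneys 5 were lower than in suspensions, where 7.91% of all genes tested were. Slc7a8 was lower in both (-0.55 and -0.70), as were Slc7a7 (-0.46 and -0.48) and Slc3a2 (-0.45 and -0.48), the light chains and the heavy chain of basolateral amino acid exchangers. Of 13 other sodium-coupled carriers 6 were higher in the intact kidney, where 12.1% of 16538 genes were, with Slc5a10 (1.88) and Slc6a18 (1.61) at the top.

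Over the 27 libraries of cells, the genes whose log2 CPM ranked most like the mean of the 10 transporters were Enpp6 (Spearman 0.966), Slc44a4 (0.958), Slc5a11 (0.955), Cyp4a10 (0.954) and Slc22a8 (0.948), among 11436 genes. The transporters themselves ranged from 0.396 for Slc5a1 and 0.795 for Slc6a19 to 0.946 for Slc5a12. These 27 points share experiments and stored libraries, and the values are a description. Slc5a1 had the lowest value of the 10 in this measure.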

How the data were processed

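Bulk RNA-seq reads and 10x Genomics UMIs were taken as the raw counts per gene that the authors deposited. Per the labels and the study's methods, bulk reads were trimmed with Trim Galore, aligned with STAR 2.6.1a to GRCm38 and counted with featureCounts, and 10x reads were processed with Cell Ranger 2.1.1 on mm10, nuclei with introns included. Kidneys in bulk were depleted of ribosomal RNA in C57BL/6J and male Balb/c mice and selected for poly(A) in females. Whether counting used the strand is not given in the sources used here.

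Mitochondrial genes were left out of 10x totals. CPM here is a count divided by its library or class total, times 1000000. Barcodes were clustered in 5 sets (2000 variable genes, 30 principal components, 20 neighbors, leidenalg 0.10.2 at resolution 2) and named from at least 3 markers. Doublets were not called, and the effect of leaving out barcodes above the 95th percentile of UMIs was computed. Libraries shared at most 1.78% of their barcodes. Counts were summed per library, or per library and class with at least 10 barcodes, and tested with edgeR 4.0.16 (quasi-likelihood test, TMM, filterByExpr, 3 against 3 libraries) in R 4.3.3, with Benjamini-Hochberg adjustment over all genes tested and calls at 0.05. DESeq2 1.42.0 was an alternative. Gene spans and exon lengths came from GENCODE M21. The steps were tested on simulated data. P-values measure the spread between these libraries, and counting limits cover counting error only.

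In C57BL/6J the barcodes carry suspension numbers that join the fresh, cryopreserved and methanol libraries of a replicate. The same numbers recur, with another letter, in the cold and the warm libraries, and the labels do not state whether these share an animal. The main tests of warm against cold dissociation do not use the numbers. Deviations of cold fresh and cold methanol libraries from their group means correlated at 0.199 to 0.212 for the same number, and over all pairs of groups same-number values ran from -0.112 to 0.223. The block was therefore an alternative chosen after seeing the data, as was a term for each suspension in comparing the dissociations, as was setting zeros to 9 UMIs. The rule that lists the transporters uses no measured value. The transporters, gene lists and tests were still chosen with earlier results of these data known. Some genes of the lists and a motif are not reported here. Named genes were the 10 transporters, and beyond them genes of the 6 lists that were called, and the 5 most like the transporters.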

Additional observations from a re-analysis of the deposited data

Results flagged for a closer look

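The effect of cryopreservation on Slc5a1 was called different between warm and cold dissociation, with a fitted difference of 8.64 on the log2 scale that depends on the prior count, since the gene is listed at 0 in all cold stored libraries. With zeros set to 9 UMIs it was 1.56 (adjusted p = 0.033, edgeR), and with a term for each suspension it was 8.72 (adjusted p = 0.0506, edgeR), which missed the threshold. The 9 UMIs are a set count without spread between the cold stored libraries, so that nothing is read from the call. The difference between nuclei and cells was lower in the female than in the male experiment for 6 transporters, by an interaction term in edgeR. These differences were -1.75 for Slc5a2, -1.70 for Slc34a3, -1.50 for Slc34a1, -1.24 for Slc7a9, -1.11 for Slc13a1 and -0.70 for Slc5a12, beside a median gene at -0.81. What moved them was not tested, and no other sex, age or chemistry of nuclei was analysed here.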

How the results depend on the processing

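Apart from libraries left out, 1395 values were computed under other settings, of which 1314 stayed on their side of the threshold or near their count. Over these settings and those without 1 library, 73 values that were called under neither setting changed sign, and 1 value changed sign and became called. That value was Slc5a2 in male proximal tubule-like nuclei, at 0.42 with library totals alone against -0.04, as the median of all genes moved from 0.76 to 1.24. For the counts of calls that follow, the share of all genes called under the same setting is not given beside them. They show how far a count moved, and nothing about the transporters is read from them. With library totals alone, the transporters called in sums over all barcodes were 1 higher for warm against cold, 0 higher and 1 lower for methanol after cold dissociation, and 2 lower for female nuclei. In proximal tubule-like sums they were 1 lower after female cryopreservation, 8 higher in male nuclei, 2 lower in female nuclei and 1 lower by SN_FANS_1x2000g. With the suspension as a replicate block, methanol gave 1 lower (cold) and 4 lower (warm) in sums over all barcodes and 5 lower in cold proximal tubule-like sums, and no other count of calls moved by over 1.5 times. With a replicate block within each dissociation, chosen after seeing the data, the interaction for cryopreservation had 0 higher and that for methanol 1 lower. No log2 fold change in bulk was at least 2 in size, so that this limit left 0 of 4 lower calls for warm dissociation and 0 of the 2 higher and 4 lower calls for intact kidneys by edgeR. Without a filter, 1 transporter was called higher in warm bulk. For warm proximal tubule-like cells 1 was called lower, not 2, with RLE scaling, with no filter, at clustering resolution 1 and without the barcodes of most UMIs. In male proximal tubule-like nuclei 1 was called lower with RLE scaling, with DESeq2 and without the barcodes of most UMIs.

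The interaction for cryopreservation had 1 lower with DESeq2, and that for nuclei 1 higher with RLE scaling, with DESeq2 and with barcodes named by marker share. Naming by marker share gave 3 higher in female nuclei and 1 higher by SN_sucrose. It also moved the mean share of proximal tubule-like barcodes to 47.6% (cold fresh), 55.6% (warm fresh), 0.249% (warm cryopreserved), 39% (cold methanol) and 45% (warm methanol) in C57BL/6J. In Balb/c it moved to 41.6% (male cells), 29.8% (male nuclei), 45.3% (fresh female cells) and, for female nuclei, 33.5% by SN_FANS_3x500g, 33.7% by SN_FANS_1x2000g and 30.9% by SN_sucrose. Endothelial-like sums, in which 1 to 5 transporters passed the filter and from whose counts nothing is read, had 9, 8 and 5 lower with no filter, in place of 3, 1 and 2, after cold, warm and female cryopreservation. They had 1 lower after cold storage without the barcodes of most UMIs, 1 lower after female storage with DESeq2, at resolution 1 or by marker share, and 1 higher, in place of 4, after cold methanol with DESeq2.

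With 1 library left out at a time, 1154 values were computed, 107 of which lost and 15 gained a call. Counts of calls ran from 1 to 2 higher for warm against cold in sums over all barcodes, 0 to 3 higher for cold methanol, and 0 to 1 higher and 0 to 2 lower for warm methanol. In proximal tubule-like sums they ran from 0 to 1 higher and 0 to 2 lower for warm, 2 to 5 higher and 1 to 2 lower for female cryopreservation, 0 to 3 lower for cold and 1 to 3 lower for warm methanol. For nuclei they ran from 3 to 5 higher and 0 to 1 lower in males, 3 to 5 higher in females, 0 to 1 lower by SN_FANS_1x2000g, and 0 to 1 higher and 1 to 4 lower by SN_sucrose. In endothelial-like sums they ran from 1 to 4 lower (warm) and 1 to 3 lower (female) after cryopreservation and 1 to 5 higher after cold methanol. Proximal tubule-like sums of cryopreserved C57BL/6J cells were not run, with under 10 barcodes in each library. The cause of these changes was not tested. A gene listed at 0 cannot be told from one removed as too rare before deposit.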

Other observations

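Among regulators of phosphate transport, Pth1r, the receptor through which parathyroid hormone acts on phosphate uptake, was lower in proximal tubule-like nuclei than in cells in both females and males (log2 fold changes -2.04 and -0.81), as was Kl, the coreceptor of the phosphate hormone FGF23 (-0.76 and -1.36). Fgfr1, a receptor of the same hormone, was higher (2.23 and 1.83). In stored female proximal tubule-like cells the pump subunits Atp1b1 (-0.61) and Fxyd2 (-0.61) were lower.

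After cryopreservation of female cells, Slc2a1, the glucose exit carrier of the later tubule, was higher in sums over all barcodes (0.71), while Slc2a2, that of the early tubule, was lower (-2.58). Neither was called in the proximal tubule-like sums. Endothelial-like barcodes were 5.46 to 7.25% of the fresh and 22.8 to 27.5% of the stored female libraries, and the part of this makeup was not tested. In warm bulk suspensions Slc2a1 and Slc2a2 had log2 fold changes of 0.72 and -0.40 against cold ones, both called. Endothelial-like barcodes of stored female cells held the transporters at 0.565 to 1.89% of the proximal tubule-like level, the lowest range among the groups with all 9 transporters above 0 there. The ends of this range rest on few endothelial-like UMIs, 3 of Slc7a9 and 13 of Slc3a1.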
